A study of Homo sapiens with 8 samples.

Results

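The genes described here encode the aminoacyl-tRNA synthetases, the enzymes that attach each amino acid to its transfer RNA (tRNA). They were chosen by name from a list of 36 genes, of which 20 encode cytosolic and 16 encode mitochondrial enzymes, and all 36 were among the 16796 genes counted. Messenger RNA was sequenced from LX-2 cells, an established human cell line derived from hepatic stellate cells, the liver cells that turn into matrix-producing myofibroblasts during fibrosis. Cells grown with 5% fetal bovine serum received either the solvent DMSO (control, 4 libraries) or 50 µM of OSMI-1 (OGTi, 4 libraries) for 24 h. OSMI-1 is a small-molecule inhibitor of OGT, the enzyme that adds the sugar O-GlcNAc to nuclear and cytosolic proteins. The replicates came from 4 independent experiments, each with a control and an OGTi sample of the same number. LX-2 is a single cell line, so the replicates carry no variation between donors. The comparison asked how the level of each synthetase mRNA differed between OGTi and control, and whether cytosolic and mitochondrial enzymes differed alike.

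Animal cells need synthetases in both the cytosol and the mitochondrion, because the compartments translate separately. Most cytosolic enzymes and their mitochondrial counterparts are encoded by different nuclear genes, written without and with a final 2 (AARS and AARS2 for alanine), although GARS (glycine) and KARS (lysine) serve both compartments. Several cytosolic enzymes sit together in the multisynthetase complex with the scaffold proteins AIMP1, AIMP2 and EEF1E1. Genes of cytosolic synthetases are well-known targets of ATF4, a transcription factor whose translation rises when the kinases of the integrated stress response phosphorylate eIF2α. ATF4 binds, with a C/EBP partner, the C/EBP-ATF response element (CARE).

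The 8 libraries held between 24166756 and 28201215 counts, and 12829 to 13180 genes per library reached 10 counts. Summed over 8 mesenchymal markers, normalized counts (counts divided by a size factor for depth) were 182972 to 212196 in control and 135821 to 159247 in OGTi. Of these markers, VIM (95086) and COL1A1 (84778) had the highest control means and DCN (0.809) the lowest. The markers of hepatocytes summed to at most 74 in any library, those of endothelial cells to at most 91 and those of cholangiocytes to at most 4. Only 2 of 4 hepatocyte and 2 of 3 cholangiocyte markers were among the genes counted, as ALB, TTR and EPCAM were absent. The leukocyte markers summed to 2477 to 4080 in control and 5605 to 9390 in OGTi, nearly all of it CD68, and their part in the results below was not tested. Messenger RNA of OGT fell by 0.45 ± 0.09 on the log2 scale (SE, q = 1.48e-06), and that of OGA, the enzyme that removes O-GlcNAc, fell by 1.80 ± 0.09 (q = 1.69e-92). The inhibitor acts on the protein, so these mRNA levels are no check of the labels.

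Promoter sequences from RefSeq (GRCh38.p14) were found for 30 of the 36 genes, 16 cytosolic and 14 mitochondrial, as windows of 300 bases with 250 before and 50 after each annotated start. Exact matches to the core of the CARE (TGATGNAA, where N is any base) on either strand were present for 7 of the 16 cytosolic genes (43.8%) and for 1 of the 14 mitochondrial genes (7.14%). Across all genes of the count files with a window, 409 of 12750 (3.21%) held a match, and across all genes with a window the share was 4.46%. The matches are printed here because the later comparison of fold changes refers to them. Each sequence is written 5′ to 3′ in the direction of the gene with the match in capitals, so that a match on the opposite strand reads TTGCATCA or TTTCATCA.
AARS (chr16:70289646-70289733, minus strand, positions -187 to -180 from the start): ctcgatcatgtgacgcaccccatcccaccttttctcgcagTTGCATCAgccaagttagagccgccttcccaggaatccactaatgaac
GARS (chr7:30594805-30594892, plus strand, positions -33 to -26): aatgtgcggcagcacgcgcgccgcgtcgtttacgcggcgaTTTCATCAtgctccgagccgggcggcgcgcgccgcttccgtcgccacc
IARS (chr9:92293678-92293750, minus strand, positions -13 to -6): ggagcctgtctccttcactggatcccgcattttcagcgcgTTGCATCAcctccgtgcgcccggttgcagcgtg
MARS (chr12:57488024-57488087, plus strand, positions -4 to 4): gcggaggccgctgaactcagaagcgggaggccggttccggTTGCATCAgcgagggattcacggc
CARS (chr11:3057404-3057465, minus strand, positions -2 to 6): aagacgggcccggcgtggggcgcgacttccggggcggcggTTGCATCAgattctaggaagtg
TARS (chr5:33440927-33440984, plus strand, positions 3 to 10): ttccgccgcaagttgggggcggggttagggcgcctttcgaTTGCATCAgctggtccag
NARS (chr18:57621815-57621862, minus strand, positions 15 to 22): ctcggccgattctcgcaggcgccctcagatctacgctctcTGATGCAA
YARS2 (chr12:32756047-32756134, minus strand, positions -197 to -190): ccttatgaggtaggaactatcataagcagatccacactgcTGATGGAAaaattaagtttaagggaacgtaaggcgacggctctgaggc

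The 7 cytosolic matches lay between positions -187 and 22, and 6 of them spelled the same 8 bases on one strand or the other, with GARS as the exception. YARS2, encoding the mitochondrial tyrosyl enzyme, carried a match further upstream. A match to the E-box CACGTG was found for IARS alone among the cytosolic genes and for CARS2, EARS2 and MARS2 among the mitochondrial ones, where 11.9% of the genes of the count files held a match. The endoplasmic reticulum stress element (CCAAT, 9 bases, CCACG) matched 0 of the 30 genes and 0.165% of the genes of the count files. A match says that these letters occur in the window, and binding was not measured in these libraries.

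In control cells, cytosolic synthetase mRNAs were more abundant than mitochondrial ones. Levels between genes were compared as CPM (counts scaled by the total of the library) per kilobase (kb) of the MANE Select transcript, the reference transcript of a gene, and the order of the genes depended on this choice of length. The cytosolic median was 50.6 in control, from 8.45 for FARSB to 137 for TARS, whereas the mitochondrial median was 8.25, from 1.87 for EARS2 to 34.5 for CARS2. On this length 14 cytosolic genes lay above every mitochondrial gene. TARS, encoding the threonyl enzyme, stood alone at the top with 137 ± 9.49 (SD, n = 4), and its 4 values overlapped with those of no other gene. KARS, MARS, AARS, SARS, QARS and YARS followed at 82.3, 81.3, 79, 78.7, 76.5 and 75.1 per kb, and neighbours in that order overlapped. CARS2 ranked 15th, above its cytosolic counterpart CARS at 14 ± 3.07 per kb. At the lower end on this length, MARS2 (4.20 ± 0.396), PARS2 (3.26 ± 0.206) and EARS2 (1.87 ± 0.214) were separated from each other without overlap. With the median length of a gene's annotated transcripts instead, TARS was again the highest, but MARS (332), QARS (256) and WARS (218) came next. CARS2 then ranked 8th at 102 per kb, with 7 cytosolic genes above it, and EARS2 stood above MARS2 (4.20) and PARS2 (3.26).

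**Figure D1:**
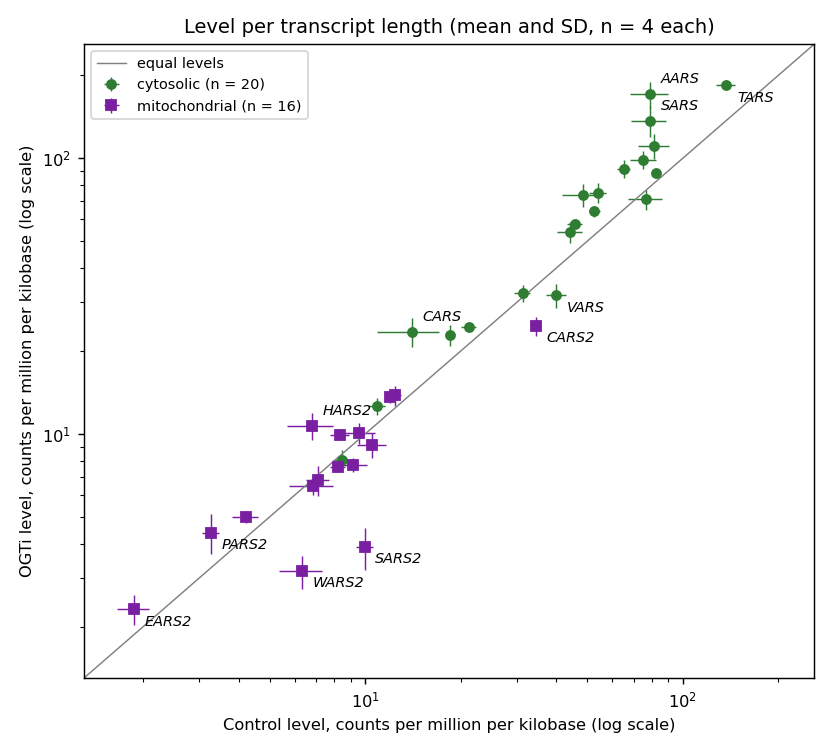
Level of each synthetase gene in control (x axis) and OGTi (y axis) in CPM per kilobase, both on log scales, with bars for the SD of 4 libraries and a line at equal levels. Cytosolic genes (green circles) mostly lie above the mitochondrial ones (purple squares) and above the line, while SARS2 and WARS2 lie furthest below it. For the median gene, CPM lay 0.09 higher (log2) in OGTi than normalized counts did. RARS and KARS lie above the line with fitted log2 changes of -0.04 and 0.01.

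Under OGTi, most cytosolic synthetase genes were called higher, whereas most mitochondrial ones were not called. Of the 20 cytosolic genes, 13 were called higher and 2 lower at a q-value (Benjamini-Hochberg adjusted p-value of DESeq2 over all genes tested) of 0.05 or lower. Of the 16 mitochondrial genes, 1 was called higher and 5 lower. Among all 14028 genes with a q-value, 46.6% were called, 22.7% higher and 24.0% lower. The share of cytosolic genes called higher (65%) was thus above that background and the share called lower (10%) below it, whereas the mitochondrial shares were 6.25% higher and 31.2% lower, the latter near its background. Without replicate 1, 2 or 4 only 3 mitochondrial genes (18.8%) were called lower, beside 19.7% to 21.1% of all genes. The median log2 fold change was 0.22 over the cytosolic genes and -0.08 over the mitochondrial genes, beside 0.00 over all genes tested. Within the 4 replicate pairs the cytosolic median was 0.20, 0.26, 0.22 and 0.30 and the mitochondrial median was -0.08, -0.01, 0.02 and -0.07, so the first kept its sign in every pair and the second did not. Because each library pools many cells, fewer cells expressing a gene and less of its RNA per cell cannot be told apart.

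**Figure D2:**
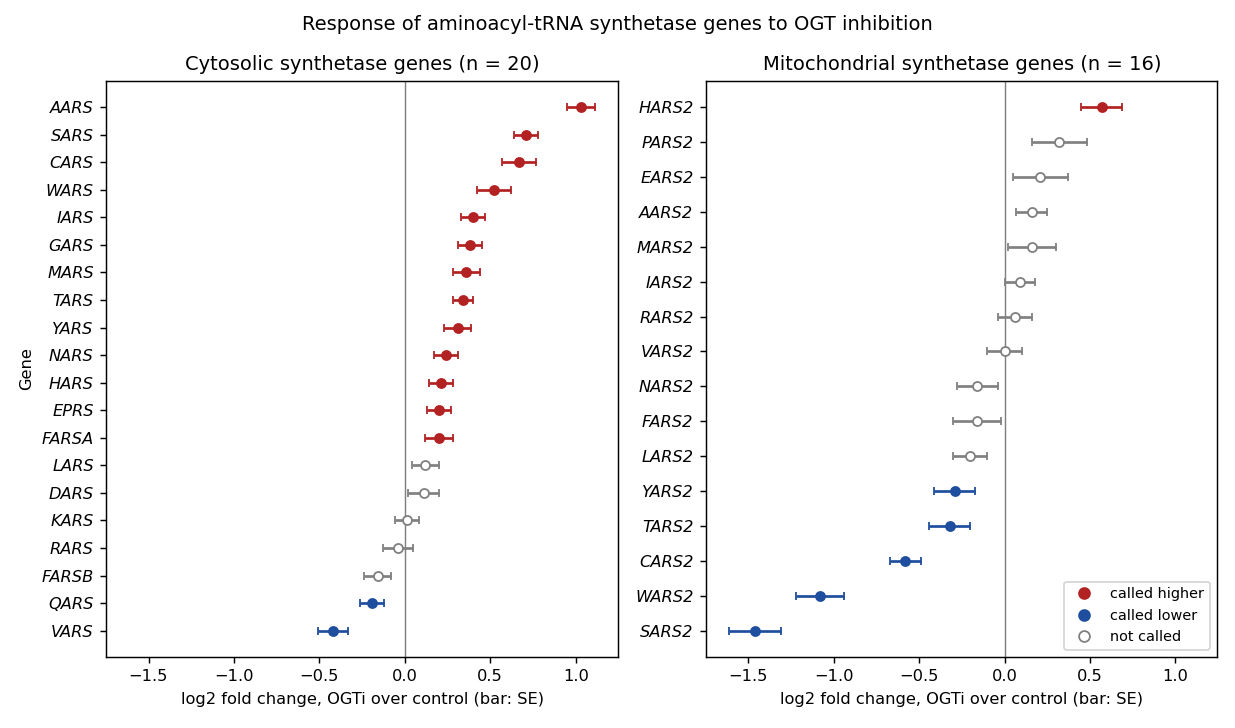
Change between control and OGTi (log2 fold change, bars SE) of the 20 cytosolic (left) and 16 mitochondrial genes (right), ordered by size, with filled points for called genes. Cytosolic genes run from AARS at 1.03 to VARS at -0.42, and mitochondrial genes from HARS2 at 0.57 to SARS2 at -1.46.

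Taken as a share of all counts, the 20 cytosolic genes held 3034, 3154, 2784 and 2875 CPM in control and 3816, 4227, 4036 and 3925 in OGTi. Every OGTi library lay above every control library, with a ratio of the means of 1.35. The 16 mitochondrial genes held 419, 418, 394 and 395 CPM in control and 395, 400, 396 and 379 in OGTi, with overlap and a ratio of 0.97. The cytosolic sum was 7.28 ± 0.20 times the mitochondrial sum in control and 10.19 ± 0.38 times in OGTi (SD, n = 4 each). For the median gene, CPM lay 0.09 higher (log2) in OGTi than normalized counts did, a shift that leaves the ratio of both sums untouched.

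The enzymes outside the multisynthetase complex held most of the rises, with 10 of 12 called higher and 1 lower. These shares were 83.3% and 8.33%, beside 22.7% and 24.0% over all genes with a q-value. AARS (chr16:70251983-70289707, minus strand), encoding the alanyl enzyme, showed the largest change of the cytosolic genes. Its normalized counts were 7677, 8293, 6334 and 6990 in control and 13287, 17234, 15264 and 14051 in OGTi. The lowest OGTi library was well above the highest control library, and the fitted change was 1.03 ± 0.08 (log2, SE; 2.04-fold, q = 3.79e-36). For SARS (chr1:109213918-109238182, plus strand), whose enzyme charges serine tRNA and also the tRNA for selenocysteine, normalized counts were 4098, 4639, 3611 and 3904 in control and 6197, 7981, 6570 and 5971 in OGTi. The groups of SARS did not overlap, and the change was 0.71 ± 0.07 (q = 1.56e-20). CARS (chr11:3000922-3057613, minus strand), encoding the cysteinyl enzyme, went from 1092, 1290, 835 and 911 to 1474, 1931, 1649 and 1486. Replicate 2 was the highest library of both groups, the groups stayed apart, and CARS rose by 0.67 ± 0.10 (q = 3.74e-10).

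WARS, encoding the tryptophanyl enzyme and known also as an interferon-induced gene, had 3703, 3794, 2883 and 3446 normalized counts in control and 4333, 5375, 5340 and 4716 in OGTi. All 4 OGTi values were above the control values, with a change of 0.52 ± 0.10 (q = 3.98e-07). TARS had 9796, 10595, 9449 and 9815 in control and 12615, 13040, 12170 and 12220 in OGTi. The spread within each TARS group was small, and the difference of 0.34 ± 0.06 (q = 3.66e-07) left no overlap. GARS, which supplies the glycyl enzyme of the cytosol and of the mitochondrion, had 3299, 3780, 3525 and 3633 in control and 4155, 5190, 4791 and 4468 in OGTi. It was higher in OGTi in all 4 pairs without overlap, by 0.38 ± 0.07 (q = 3.87e-07). YARS, encoding the tyrosyl enzyme, rose by 0.31 ± 0.08 (q = 0.000438) from 4952 ± 370 to 6137 ± 480, again without overlap. Exons of YARS and WARS share 12.7% and 5.49% of their bases with S100PBP and WDR25 on the opposite strand, from which strand-specific counting separates them.

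**Figure D3:**
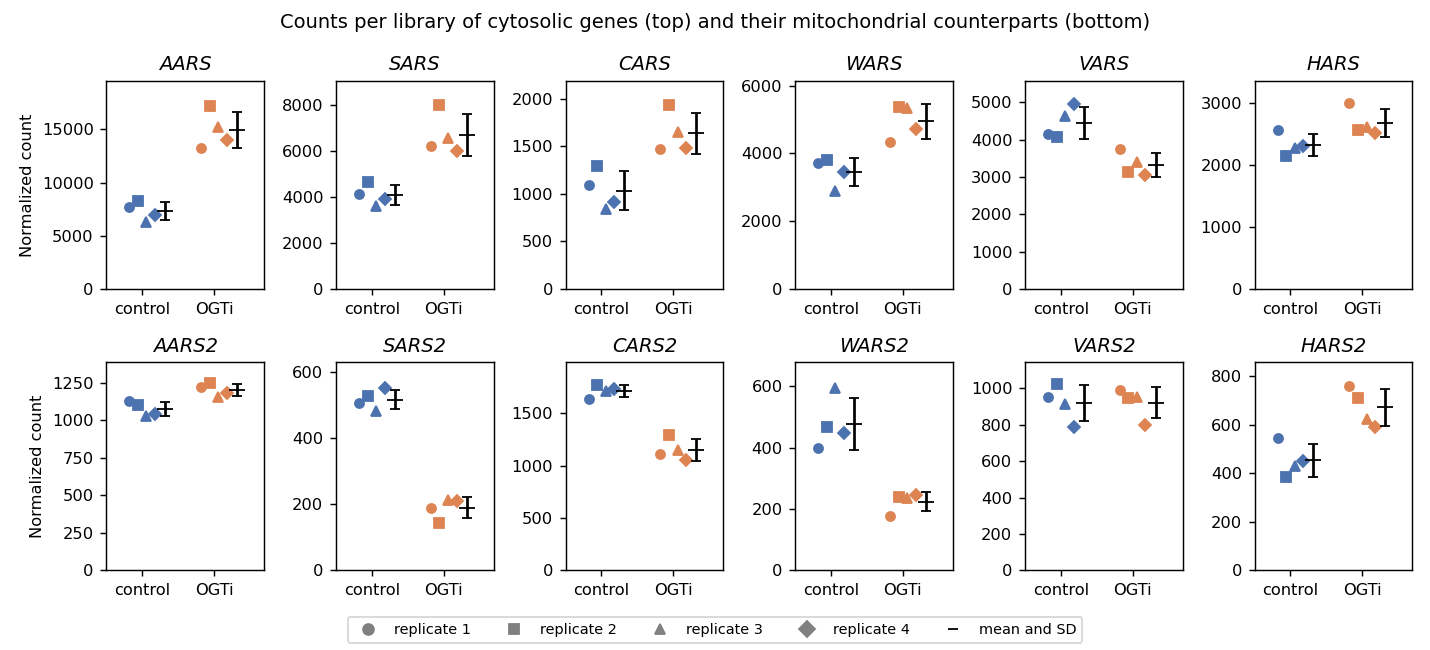
Normalized count in each of the 4 control (blue) and 4 OGTi (orange) libraries for 6 cytosolic genes (top) and their mitochondrial counterparts (bottom), with marker shape for the replicate, mean and SD in black and axes from 0. AARS, SARS, CARS and WARS are higher in OGTi, SARS2, CARS2 and WARS2 are lower, and VARS is lower while HARS2 is higher.

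Smaller rises outside the complex depended on the replicates. NARS, encoding the asparaginyl enzyme, had 3170, 3454, 3724 and 3319 normalized counts in control and 3893, 4136, 4018 and 4113 in OGTi. These groups did not overlap and the change was 0.24 ± 0.07 (q = 0.0025), although the q-value was 0.0513 without replicate 4. FARSA, the alpha subunit of the phenylalanyl enzyme, rose by 0.20 ± 0.08 (q = 0.025) from 2543, 2578, 2490 and 2713 to 2963, 3162, 2916 and 2798. The FARSA call was lost without replicate 1 (q = 0.0745), replicate 2 (q = 0.187) or replicate 3 (q = 0.122). FARSB, the beta subunit of the same tetramer, had a change of -0.16 ± 0.08 and was not called (q = 0.103), its counts being 1514, 1398, 1567 and 1703 in control and 1387, 1313, 1291 and 1529 in OGTi.

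VARS (chr6:31777518-31795752, minus strand), encoding the valyl enzyme, was the clear exception among the cytosolic genes. Its normalized counts were 4136, 4065, 4624 and 4962 in control and 3748, 3118, 3386 and 3044 in OGTi. Every OGTi library was below every control library, and VARS fell by 0.42 ± 0.09 (log2, SE; q = 1.45e-05). Across all cytosolic genes the groups did not overlap for 10 genes higher in OGTi and for VARS alone lower, whereas 40.0% of the 14028 genes were apart, 19.8% higher and 20.2% lower.

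Among the 8 enzymes of the multisynthetase complex, 3 were called higher (37.5%), 1 lower (12.5%) and 4 were not called. Over all genes with a q-value, 22.7% were called higher and 24.0% lower. The median log2 fold change was 0.12 for the complex, beside 0.32 for the 12 other cytosolic genes. IARS, encoding the isoleucyl enzyme, had 7621, 8302, 7982 and 7696 normalized counts in control and 9259, 11170, 10746 and 10585 in OGTi. IARS was the only complex gene whose groups were apart, with a change of 0.40 ± 0.07 (q = 1.21e-08). MARS, encoding the methionyl enzyme, had 6125, 6910, 5672 and 5839 in control and 6895, 8674, 8693 and 7351 in OGTi. The MARS groups touched, since OGTi replicate 1 fell just under control replicate 2, but each OGTi library exceeded its own control and the change was 0.36 ± 0.08 (q = 2.95e-05). MARS and DDIT3, a gene induced by ATF4, lie on opposite strands and share 68 exon bases (2.35% of MARS).

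EPRS, a fused enzyme for glutamate and proline, had 2348, 2349, 2571 and 2475 normalized counts in control and 2533, 2699, 2968 and 3046 in OGTi. The groups overlapped, and the rise of 0.20 ± 0.07 (q = 0.0165) lost its call without replicate 2 (q = 0.0871), 3 (q = 0.0836) or 4 (q = 0.158). QARS, the glutaminyl enzyme, which has no separate mitochondrial counterpart in animals, had 5816, 4871, 4892 and 4639 in control and 4875, 4571, 4197 and 4023 in OGTi. It was lower in all 4 pairs but with overlapping groups, by -0.19 ± 0.07 (q = 0.0131). This call needed the pairing, as q was 0.0883 without the replicate block, and it was also lost without replicate 1 (q = 0.0649), 3 (q = 0.0735) or 4 (q = 0.0881). KARS, which like GARS serves both compartments, stood at 4403, 4349, 4442 and 4523 in control and 4615, 4449, 4566 and 4220 in OGTi, with a change of 0.01 ± 0.07 (q = 0.925). The groups of KARS overlapped fully. DARS (aspartyl), LARS (leucyl) and RARS (arginyl) were not called, with changes of 0.11, 0.12 and -0.04.

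Both structural classes of synthetase were represented on each side. Among cytosolic genes, 5 of 9 class I enzymes were called higher and 2 lower, and 7 of 10 class II enzymes were called higher and 0 lower, EPRS holding a domain of each class. The mitochondrial genes showed 0 higher and 3 lower of 9 in class I, and 1 higher and 2 lower of 7 in class II. The shares over all genes with a q-value were 22.7% higher and 24.0% lower.

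Grouped by the promoter sequences printed above, the 7 cytosolic genes with a CARE match were all called higher, with a median log2 fold change of 0.38 and a range from 0.24 (NARS) to 1.03 (AARS). The 9 cytosolic genes with a window but no match had a median of 0.20, with 5 called higher (55.6%) and 1 lower (11.1%). Over all genes with a q-value, 22.7% were called higher and 24.0% lower, so the unmatched genes too were called higher more often. The 4 genes with no window (DARS, LARS, VARS and YARS) had a median of 0.12, with 1 called in each direction. Changes within the range of the matched genes also occurred without a match, in SARS (0.71) and WARS (0.52), although neither reached AARS. Elements outside the window or spelled otherwise were not sought. YARS2 carried a match and was called lower. Summed over the 7 matched genes, CPM were 1470, 1609, 1351 and 1387 in control and 2042, 2393, 2238 and 2165 in OGTi, a ratio of 1.52 with no overlap. Replicate 2 held the highest control value for 6 of these 7 genes and the highest OGTi value for 6 of them, NARS and MARS being the respective exceptions.

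**Figure D4:**
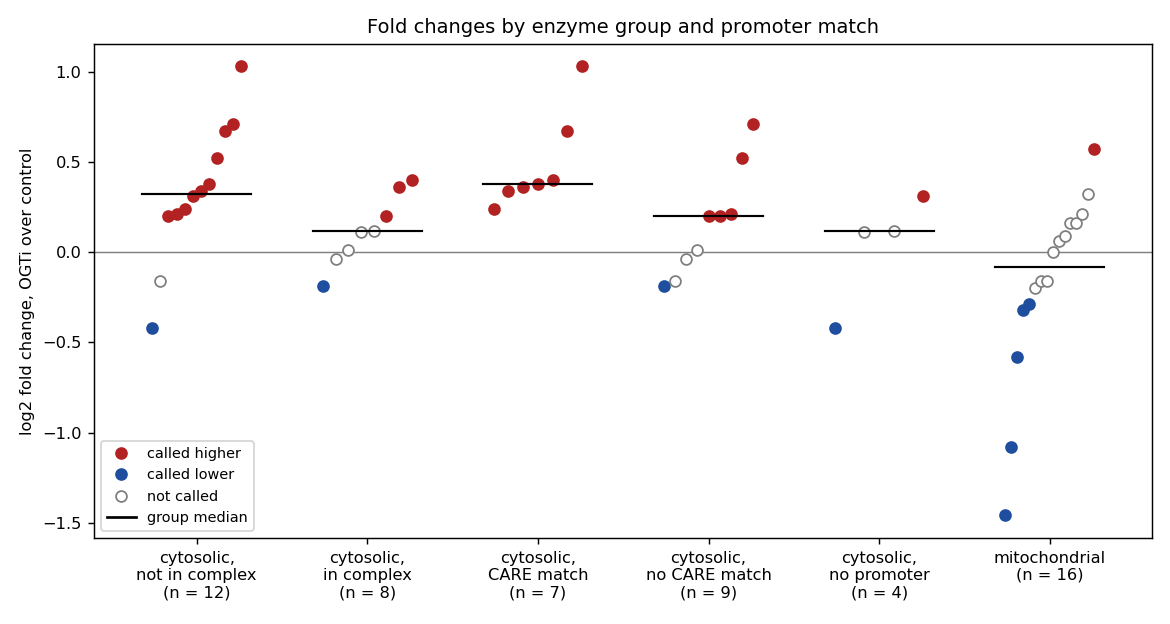
Change between control and OGTi (log2 fold change) of each synthetase gene (points, red called higher, blue called lower, open not called) with group medians (bars), by membership of the multisynthetase complex, by CARE match in the promoter window and for the mitochondrial genes. The 7 matched cytosolic genes run from 0.24 to 1.03, and the mitochondrial genes spread to both sides of 0.

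The mitochondrial genes held the deepest falls. SARS2 (chr19:38915266-38930763, minus strand), encoding the mitochondrial seryl enzyme, had 506, 527, 484 and 552 normalized counts in control and 190, 144, 213 and 210 in OGTi. No OGTi library exceeded 213, the groups were far apart, and SARS2 fell by 1.46 ± 0.15 (log2, SE; q = 5.61e-21), to 0.36 of control. The annotation places another gene model on the same strand that shares 1492 of the 2082 exon bases of SARS2 (71.7%) and has no row in the count files, so which model the reads came from cannot be told apart. WARS2 (chr1:119031216-119140654, minus strand), for mitochondrial tryptophan, had 398, 468, 595 and 449 in control and 178, 238, 236 and 246 in OGTi. Its highest OGTi value was far below its lowest control value, and it fell by 1.08 ± 0.14 (q = 3.08e-13). CARS2 (chr13:110641412-110713603, minus strand), for mitochondrial cysteine, had 1635, 1769, 1713 and 1732 in control and 1110, 1295, 1148 and 1050 in OGTi. The control libraries were tightly grouped and separate from OGTi, with a fall of 0.58 ± 0.09 (q = 3.99e-10).

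TARS2 and YARS2 changed less. TARS2, for mitochondrial threonine, had 721, 664, 588 and 716 normalized counts in control and 550, 524, 574 and 497 in OGTi, without overlap, and fell by 0.32 ± 0.12 (q = 0.0158). That call was lost without replicate 1 (q = 0.0841), 2 (q = 0.0865) or 4 (q = 0.169). YARS2 had 631, 646, 540 and 591 in control and 535, 446, 539 and 449 in OGTi. Its groups were separated by a single count between control replicate 3 and OGTi replicate 3, and the fall of 0.29 ± 0.12 (q = 0.0399) lost its call without replicate 1 (q = 0.0913), 2 (q = 0.284) or 4 (q = 0.198).

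HARS2 was the only mitochondrial gene called higher. It encodes the mitochondrial histidyl enzyme and lies head to head with HARS on chromosome 5, the first listed RefSeq starts of both genes being 85 bases apart. The stretch from this start of HARS (minus strand, left) to that of HARS2 (plus strand, right) is printed because, from these starts, both genes are read outward. The annotated gene of HARS extends to 140691537 and that of HARS2 begins at 140691430, so transcripts from other annotated starts overlap.
HARS to HARS2 (chr5:140691370-140691455, plus strand): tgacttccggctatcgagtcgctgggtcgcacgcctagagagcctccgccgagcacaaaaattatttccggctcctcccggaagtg
HARS2 had 546, 384, 429 and 450 normalized counts in control and 759, 708, 625 and 590 in OGTi. Replicate 1 was highest in both groups, the groups were apart, and HARS2 rose by 0.57 ± 0.12 (log2, SE; q = 1.41e-05). HARS had 2570, 2142, 2268 and 2303 in control and 3008, 2574, 2607 and 2514 in OGTi. Here too replicate 1 was highest in both groups, and HARS was higher in all 4 pairs by 0.21 ± 0.07 (q = 0.015), but the groups overlapped. The HARS call was lost without the replicate block (q = 0.0528) and without replicate 1 (q = 0.0545), 2 (q = 0.123) or 3 (q = 0.0734). Exons of HARS and HARS2 overlap by 86 bases on opposite strands, and the libraries were strand-specific. On their own strands HARS shares 5.28% of its exon bases with DND1 and HARS2 5.43% with ZMAT2, so reads there could be divided between the neighbours. The counts of HARS and of HARS2 were fractional in 0 of the 8 libraries.

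The other 10 mitochondrial genes were not called, with changes from -0.20 to 0.32 and q-values from 0.0837 to 0.993. LARS2 (leucyl) and AARS2 (alanyl) belonged to these although their groups did not overlap. LARS2 went from 1093, 971, 1107 and 1065 to 929, 960, 957 and 850, a change of -0.20 ± 0.10 (q = 0.0837), and AARS2 from 1126, 1104, 1029 and 1044 to 1220, 1248, 1158 and 1184, a change of 0.16 ± 0.09 (q = 0.123). In all, groups were apart for 2 of the 16 mitochondrial genes higher in OGTi and for 6 of the 16 lower. Over the 14028 genes with a q-value, the shares were 19.8% higher and 20.2% lower. PARS2, for mitochondrial proline, had 211, 195, 199 and 225 in control and 306, 209, 253 and 278 in OGTi. Its change of 0.32 ± 0.16 missed the threshold with DESeq2 (q = 0.0878) and passed it with edgeR and the same replicate block (q = 0.0365). EARS2, IARS2, MARS2, RARS2 and VARS2 had changes between 0.00 and 0.21, and FARS2 and NARS2 both had -0.16.

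Because both genes of a pair are counted in the same library, the ratio of the cytosolic to the mitochondrial gene does not depend on the scaling between libraries. The transcripts of the paired genes shared 0 stretches of 50 bases, so reads of that length could not be divided between them. Ratios were formed for 17 pairs and compared between 4 control and 4 OGTi libraries with a two-sided exact permutation test on the log2 ratio. Its smallest possible p is 0.0286, which 12 pairs reached (q = 0.0405 after adjustment over the 17 pairs), 10 with a higher and 2 with a lower ratio in OGTi. Such a p says that the groups did not overlap. For single genes the groups were apart for 40.0% of the 14028 with a q-value, and no such share was formed for ratios of other gene pairs. EPRS and FARS2 each entered 2 pairs, so the 17 pairs are not independent of each other. With signs permuted within the replicate pairs the smallest possible p is 0.125, so the paired form of the test could not pass for any pair. Leaving out 1 replicate left 3 against 3 libraries with a smallest p of 0.1, and none could pass there either.

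SARS to SARS2 showed the widest shift, with log2 ratios of 3.02, 3.14, 2.90 and 2.82 in control and 5.02, 5.79, 4.94 and 4.82 in OGTi. The geometric mean ratio went from 7.82 to 35.28 (4.51-fold, exact permutation q = 0.0405), as the cytosolic gene rose and the mitochondrial gene fell. WARS to WARS2 went from 3.21, 3.02, 2.27 and 2.94 to 4.60, 4.49, 4.49 and 4.25, a difference of 1.60 in mean log2 ratio. CARS to CARS2 changed order in counts, which are not scaled for transcript length. Its log2 ratios were -0.58, -0.46, -1.04 and -0.93 in control, where CARS2 had more counts than CARS, and 0.41, 0.58, 0.52 and 0.50 in OGTi, where CARS had more. Per kb of the MANE Select transcript, the OGTi levels were 23.5 ± 2.84 for CARS and 24.6 ± 2 for CARS2 (SD, n = 4), so CARS was not above CARS2 there. The ratios of AARS, TARS and YARS to their counterparts were higher by 0.87, 0.66 and 0.60, and those of NARS, FARSA, LARS and IARS by 0.40, 0.35, 0.32 and 0.31. The ratios of HARS to HARS2 and VARS to VARS2 were lower, by -0.37 and -0.42. MARS to MARS2 was higher by 0.20 but the groups overlapped (exact permutation p = 0.2), and RARS, both EPRS pairs and FARSB differed by between -0.12 and -0.00, each with p of 0.486 or above by the same exact permutation test. Over all 17 pairs the median difference was 0.32.

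**Figure D5:**
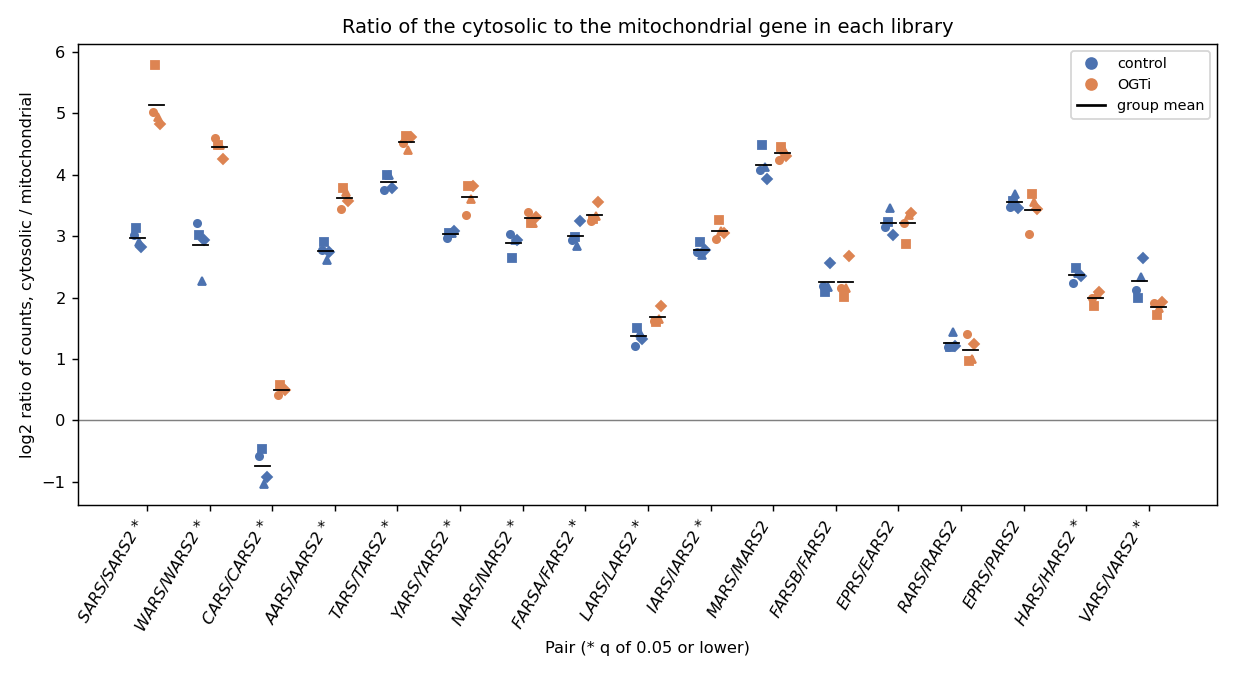
Log2 ratio of the counts of the cytosolic gene to those of its mitochondrial counterpart in each control (blue) and OGTi (orange) library, with group means as bars and an asterisk for pairs with q of 0.05 or lower (two-sided exact permutation test). The shift is widest for SARS/SARS2, CARS/CARS2 crosses 0, and HARS/HARS2 and VARS/VARS2 shift downward.

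Genes that work beside the synthetases did not share a direction. Their calls are to be read beside the 22.7% called higher and 24.0% called lower over all genes with a q-value. None of the 3 scaffold genes of the multisynthetase complex was called higher. AIMP1 had 967, 1111, 1169 and 979 normalized counts in control and 721, 808, 719 and 817 in OGTi, without overlap, and fell by 0.46 ± 0.10 (log2, SE; q = 4.19e-05). AIMP2 fell by 0.29 ± 0.12 (q = 0.0306), a call lost without replicate 1 (q = 0.0573), 2 (q = 0.0914) or 4 (q = 0.294), and EEF1E1 was not called at -0.17 ± 0.13. Of the 4 genes that finish mitochondrial charging by amidation or formylation, 2 were called higher. MTFMT, which formylates the initiator methionyl-tRNA, had a change of 0.33 ± 0.12 (q = 0.0142), and GATB, a subunit of the amidotransferase that makes glutaminyl-tRNA, had 0.26 ± 0.11 (q = 0.0354). The GATB call was lost without any of the 4 replicates (q = 0.108 to 0.149), and the MTFMT call without replicate 1 (q = 0.101), 3 (q = 0.0842) or 4 (q = 0.0684).

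Among 7 other charging and editing genes, 2 were called higher and 2 lower (28.6% each), beside 22.7% and 24.0% of all genes. TARSL2, a threonyl paralogue, rose by 0.68 ± 0.15 (q = 4.88e-05), and PTRH2, a peptidyl-tRNA hydrolase, by 0.64 ± 0.13 (q = 4.39e-06). PSTK fell by 0.71 ± 0.31 (q = 0.0491) and DTD1 by 0.26 ± 0.10 (q = 0.0269), both with overlapping groups. Of 8 genes of tRNA processing and export, 1 was called higher and 1 lower. The one called higher was XPOT, the exporter of tRNA from the nucleus, with 0.32 ± 0.08 (q = 0.00023). HSD17B10 was the one called lower, with -0.31 ± 0.09 (q = 0.00265), and the groups of both genes overlapped. Of 5 cytosolic elongation factor genes, 1 was called higher and 0 lower, and of 8 mitochondrial translation factor genes, 1 was called in each direction. MTRF1L, a mitochondrial release factor, rose by 0.48 ± 0.08 (q = 6.23e-08), and MTIF2, the mitochondrial initiation factor, fell by 0.45 ± 0.12 (q = 0.000571).

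Of 13 genes of the ATF4 arm of the stress response, 8 were called higher (61.5%) and 2 lower (15.4%). Over all genes with a q-value, the shares were 22.7% and 24.0%. The median log2 fold change of the 13 genes was 0.56, and within the 4 replicate pairs it was 0.22, 0.45, 1.02 and 0.51. Like the other lists, this one was chosen with earlier results of these data known. ATF4 itself had 6791, 7343, 6361 and 6817 normalized counts in control and 9942, 13492, 12267 and 9730 in OGTi. The groups were apart, and ATF4 rose by 0.72 ± 0.08 (log2, SE; q = 2.10e-16). ASNS, which makes asparagine and is a standard ATF4 target, rose by 1.03 ± 0.11 (q = 1.87e-20), about as far as AARS. SESN2 and DDIT3 rose by 1.01 ± 0.10 (q = 1.65e-20) and 1.33 ± 0.26 (q = 1.55e-06). EIF2AK4, the kinase that senses uncharged tRNA, fell by 0.34 ± 0.08 (q = 9.58e-05). ATF5 was also called lower, by 0.29 ± 0.09 (q = 0.00395), with overlapping groups. TRIB3 (0.39 ± 0.29, q = 0.273), ATF3 (0.22 ± 0.11, q = 0.0961) and CEBPG (-0.01 ± 0.10, q = 0.954) were not called. Whether the synthetase changes followed from ATF4 was not tested, and neither charging of tRNA nor any protein was measured in these libraries.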

How the data were processed

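RNA of 4 control and 4 OGTi samples of LX-2 cells was enriched for polyadenylated RNA, made into strand-specific libraries and sequenced from both ends. The authors mapped reads to hg38 (GRCh38) with Bowtie2 2.3.5.1 and counted them with RSEM 1.3.1, and the deposited files, 1 per library, hold expected counts, in which a read with several alignments is divided between genes. Counts of AARS2 were fractional in 8 libraries, of TARS2 in 6 and of CARS2 in 4. The authors' DESeq2 1.36.0 comparison table (mean, log2 fold change, standard error, statistic, p-values) was deposited too and not used.

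The members and gene lists were chosen with earlier results of these data known. Counts were rounded to whole numbers, genes with a total under 10 were dropped, and DESeq2 1.42.0 (Wald test, R 4.3.3) was run on the 14895 genes left, with median-of-ratios size factors, replicate number as a block, no shrinkage and Benjamini-Hochberg adjustment (q). A gene was called at q of 0.05 or lower. The study's methods pair samples in this way. Deviations from the group means correlated between libraries of the same number with r = 0.379, 0.303, 0.138 and 0.269 over 11702 genes. For replicates 1 and 2 no other partner correlated more. Control replicate 3 correlated more with OGTi replicate 4 (0.272), and OGTi replicate 3 more with control replicate 4 (0.201). The pairing of replicates 3 and 4 was taken from the sample numbers and is not settled by these correlations. Fits were tested on simulated counts with known changes.

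Ratios used log2(normalized count + 1). Levels were CPM per kilobase of the MANE Select transcript of GENCODE release 44. Exact motif matches were sought in RefSeq windows on both strands, and a gene with several windows counted if any matched. Per-library values were fixed for the 6 cytosolic and 6 mitochondrial genes with the largest absolute Wald statistic, HARS, HARS2, GARS, KARS and members whose call changed under an alternative. Those of the other members were added after their values were seen. Depth was 24166756 to 28201215 counts per library, and SDs cover replicate as well as counting error. Alternatives were no block, edgeR 4.0.16 with and without the block, TMM factors, other count filters, rounding down, leaving out each replicate, a pseudocount of 0.5 and the median transcript length.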

Additional observations from a re-analysis of the deposited data

Results flagged for a closer look

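Of 116 groups of 4 libraries examined for a value far from the other 3, 3 held a value whose distance to its neighbour, as a share of the range, exceeded Dixon's critical value for 4 values. Chance alone gives about 1 in 20 such groups, or 5.8 here. RARS had 1986 normalized counts in control replicate 3, with the other control libraries at 1718 to 1751 (share 0.877), and its log2 fold change of -0.04 became 0.04 once replicate 3 was left out. WARS2 had 178 in OGTi replicate 1, with 236 to 246 in the others (share 0.855), and its fall was -1.06 without that replicate. GATB had 730 in OGTi replicate 1, with 638 to 646 in the others (share 0.911), and its change was 0.23 without that replicate (DESeq2, q = 0.149).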

How the results depend on the processing

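Of the 21 synthetase genes called, 14 kept their call and direction under all 11 alternatives to the DESeq2 fit, namely 9 of 13 cytosolic genes called higher, 1 of 2 called lower, the mitochondrial gene called higher and 3 of 5 called lower. Removing the replicate block left 1 cytosolic gene called lower, as did edgeR without the block, because QARS was lost, and HARS was lost under both. VARS2 then read -0.00 on the log2 scale, and in DESeq2 no other call of a member changed without the block. With edgeR and the block, 2 mitochondrial genes were called higher, because PARS2 was added, a call that edgeR without the block did not make. Without each replicate in turn, 1 to 2 cytosolic and 3 to 5 mitochondrial genes were called lower, a fit with fewer samples, and the log2 fold change ranged from -0.01 to 0.05 for KARS, -0.08 to 0.04 for RARS and -0.02 to 0.04 for VARS2. The median change stayed between 0.21 and 0.24 for cytosolic and between -0.10 and -0.04 for mitochondrial genes. No scaling alternative moved the median of all genes by more than 0.0014.

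For the ratios, the replicate block (signs permuted within pairs) gave 0 pairs higher and 0 lower, since its smallest p is 0.125, and leaving out a replicate gave 0 to 0 pairs, since 3 against 3 cannot go below 0.1. The difference then ranged from -0.21 to 0.01 for RARS to RARS2, -0.13 to 0.11 for EPRS to EARS2 and -0.04 to 0.02 for FARSB to FARS2. With the median transcript length the control level per kilobase was 67.8 for cytosolic and 9.51 for mitochondrial genes. Of the members whose log2 change, as printed to 2 decimals, was under 0.20 in size, only QARS was called by DESeq2 with the block, and a missed call does not show that values did not differ.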
